A study of Drosophila melanogaster with 6 samples.

Results

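The inducible 70-kDa heat shock protein genes of Drosophila melanogaster, Hsp70Aa, Hsp70Ab, Hsp70Ba, Hsp70Bb, Hsp70Bbb and Hsp70Bc, and the related gene Hsp68 were followed through every library of the series. A member was any row of the count tables whose symbol was one of these 7 names. Of the 14770 rows, 4 met this rule (Hsp70Aa, Hsp70Ba, Hsp70Bc and Hsp68). Hsp70Ab, Hsp70Bb and Hsp70Bbb had no row under those symbols and were not analysed here as separate members. Polyadenylated RNA had been sequenced from S2-DRSC cells, a line made from late embryos with the genotype given as wild type (S2, 4 libraries), and from S2-DRSC-HA::AbdA cells (S2-AbdA, 2 libraries). The latter are the same line stably transfected with an HA-tagged form of AbdA, a Hox protein of the abdominal segments. Both lines, the controls included, had received copper sulphate (10 µM, 24 h), so no library shows cells without copper. A line transfected without AbdA is not among the samples, so AbdA and the transfection cannot be told apart. The labels do not give the promoter of the transgene or say whether the line is 1 clone. Whether replicates came from separate cultures is not stated, and the p-values therefore cover the spread between libraries alone, which may be technical.

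Hsp70 proteins are ATP-driven chaperones that bind unfolded stretches of other proteins and let them refold. The Drosophila Hsp70 genes lie in a pair of clusters on the right arm of chromosome 3, as near-identical copies, and Hsp68 lies alone further along the same arm. At normal temperature their promoters carry an RNA polymerase II that has started transcription and then paused, held by NELF and DSIF. Heat, heavy metals and unfolded protein bring heat shock factor (Hsf) to these promoters and release the polymerase. The Hsc70 genes code for related chaperones that are made without stress.

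The 4 rows were single intervals of chromosome 3R in build dm3. The Hsp70Aa row (gene number 48581) ran from 7779885 to 7786604, the Hsp70Ba row (44921) from 8291026 to 8293500, the Hsp70Bc row (48583) from 8334798 to 8337183, and the Hsp68 row (42852) from 19880815 to 19883032. Hsp70Aa spanned 6720 bases, where Hsp70Ba, Hsp70Bc and Hsp68 spanned 2475, 2386 and 2218. In the files CG31211 and CG3281 flanked the Hsp70Aa row, and in RefSeq's gene order for a later assembly both Hsp70Aa and Hsp70Ab lie between those same genes. Hsp70Bbb and Hsp70Bb lie, in that order, between the alphagamma-element and Hsp70Bc. How reads that match several copies were counted is not stated in the labels or files, so the split between copies is uncertain and the summed count of the 3 Hsp70 rows is given throughout as the Hsp70 sum. Reads that were dropped, or given to a copy without a row, would be missing from this sum too. No other row overlapped a member. The nearest, CG5608, ended 6 bases from Hsp70Ba.

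The libraries held 34233132 to 69858688 counts, and 3 counts amounted to 0.0429 to 0.0876 CPM, counts scaled to 1000000 per library. The S2 libraries fell into sets by their labels, since the descriptions of replicates 1 and 2, and of both S2-AbdA libraries, name the authors' table of changed genes, and those of replicates 3 and 4 do not. These sets stood apart: 37.0% of the 9375 genes tested differed between S2 replicates 3 and 4 and S2 replicates 1 and 2. In S2-AbdA replicates 1 and 2 the abd-A row stood at 17289 and 10909 CPM, against 29.1 and 52.7 in S2 replicates 1 and 2 and 0 and 0.0429 in replicates 3 and 4. Like the heat shock rows below it was lowest in S2 replicates 3 and 4, and its part in their values was not tested. Markers of S2's blood-cell character (8 of 8 tested) summed to 3421 to 3980 CPM in S2 replicates 1 and 2. They summed to 827 to 2847 in replicates 3 and 4 and 2625 to 2883 in S2-AbdA, with NimC1 at 0 in S2 replicate 3. Of these sums vkg alone made up 2810 to 3079, 677 to 2342 and 2472 to 2489 CPM. Against S2 replicates 1 and 2, 5 of the 8 were lower in S2-AbdA and 5 in S2 replicates 3 and 4. Over all genes 7.36% and 18.9% were lower there. The summed markers of other cell types lay between 34.6 and 81.4 CPM for ovarian somatic cells (3 of 4 tested), 23.0 and 69.3 for neurons (4 of 4), and 18.8 and 57.1 for muscle (3 of 4). Between the S2 sets 2 of the 4 neuron markers (n-syb and Syt1) and 2 of the 3 muscle markers (bt and Mef2) were lower in replicates 3 and 4. So were the heat shock rows and 18.9% of all genes tested. The counts of n-syb and Syt1 were at most 18 in any library, and DESeq2 called 1 neuron marker. The neuron sums rested mostly on elav and brp, which did not pass (-0.07 and -0.39). Of 3 ovarian markers 0 passed (1 at an unadjusted p under 0.05, 1 with DESeq2). The part of any of these in the results was not tested. In bulk RNA, fewer cells of a type and less RNA per cell cannot be told apart.

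Hsp70 RNA was present at a few CPM in S2 replicates 1 and 2 and in both S2-AbdA libraries, and was at or near the counting floor in S2 replicates 3 and 4. The Hsp70 sum was 134 and 639 counts in S2 replicates 1 and 2, 9 and 4 in replicates 3 and 4, and 846 and 507 in S2-AbdA replicates 1 and 2. In CPM these were 3.91 and 14.6, then 0.167 and 0.0573, then 17.8 and 10.9. Neither of S2 replicates 3 and 4 overlapped any other library, while S2 replicate 2 lay between the S2-AbdA libraries. How many of all genes set these libraries apart in this way was not counted. Set means were 9.26 ± 7.56 CPM in S2 replicates 1 and 2, 0.112 ± 0.0773 in S2 replicates 3 and 4 and 14.4 ± 4.88 in S2-AbdA (SD, n = 2 each).

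Each Hsp70 row followed the same division of the libraries. Reads shared by near-identical copies may have been divided among the rows, so these rows are not independent, here or in the counts of rows below. Hsp70Bc had the most counts, 72 and 353 in S2 replicates 1 and 2, 6 and 3 in replicates 3 and 4, and 398 and 248 in S2-AbdA. Hsp70Ba gave 29 and 183, then 1 and 1, then 294 and 169 counts in the same order. Hsp70Aa gave 33 and 103, then 2 and 0, then 154 and 90. For all 3 rows S2 replicates 3 and 4 were the lowest libraries and S2-AbdA replicate 1 the highest. S2 replicate 2 exceeded S2-AbdA replicate 2 in all 3, by 8.07 against 5.35 CPM for Hsp70Bc, 4.18 against 3.65 for Hsp70Ba and 2.35 against 1.94 for Hsp70Aa.

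Hsp68, whose protein is a stress-induced cytosolic chaperone of the same family, had far more counts than the Hsp70 rows. It had 3586 and 8094 counts in S2 replicates 1 and 2, 872 and 1443 in replicates 3 and 4, and 19687 and 10353 in S2-AbdA. In CPM these were 105 and 185, then 16.1 and 20.7, then 415 and 223. The 3 sets did not overlap: both S2-AbdA libraries lay above every S2 library, and S2 replicates 3 and 4 lay lowest without reaching the floor. How many of all genes divide in this order was not counted. Set means were 145 ± 56.7, 18.4 ± 3.19 and 319 ± 136 CPM (SD, n = 2 each). Per kilobase of row, Hsp68 stood at 65.3, 8.30 and 144 CPM in the 3 sets, Hsp70Bc at 2.13, 0.0323 and 2.88, and Hsp70Ba at 1.02, 0.00663 and 1.99. The Hsp70Aa row covers more than 1 gene length and was left out of this comparison of levels. Hsp70 reads that were dropped or given to copies without a row would be missing here, so Hsp70 may stand too low beside Hsp68.

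**Figure D1:**
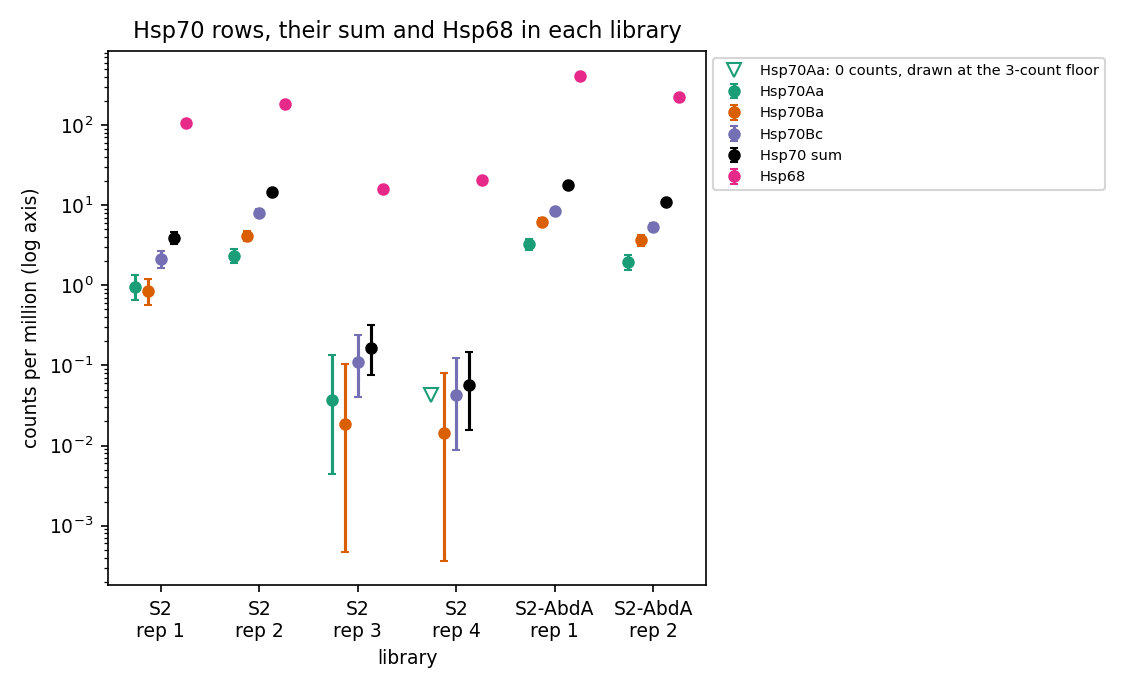
CPM on a log axis in each library for the 3 Hsp70 rows, their sum and Hsp68, with 95% exact Poisson intervals that cover counting error only. S2 replicates 3 and 4 lie far below the other libraries; Hsp70Aa, with 0 counts in S2 replicate 4, is drawn there as an open triangle at the 3-count floor.

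Libraries within a set also differed for these genes. S2 replicate 2 held 3.73 times the Hsp70 sum of S2 replicate 1 in CPM. Of the tested genes 1.03% were at least as far apart between these libraries, in log2 CPM with 0.5 added to each count. Hsp70Ba differed most, 4.94-fold (0.501% of genes as far apart), and Hsp68 least, 1.77-fold (8.91%). In S2-AbdA, replicate 1 held 1.63 times the Hsp70 sum of replicate 2 (16.1% of genes as far apart) and 1.86 times its Hsp68 (10.3%). Of S2 replicates 1 and 2, replicate 1 was thus the lower for every row.

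The make-up of the Hsp70 counts was followed as each row's share of their sum. Hsp70Bc took 53.7% and 55.2% of the Hsp70 counts in S2 replicates 1 and 2 and 47.0% and 48.9% in S2-AbdA. The 95% exact binomial intervals were 44.9 to 62.4 and 51.3 to 59.1 in the S2 libraries and 43.6 to 50.5 and 44.5 to 53.4 in S2-AbdA. Hsp70Ba took 21.6% (15.0 to 29.6) and 28.6% (25.2 to 32.3) in S2 replicates 1 and 2 and 34.8% (31.5 to 38.1) and 33.3% (29.2 to 37.6) in S2-AbdA. For both rows the shares of the S2-AbdA libraries lay beyond those of both S2 libraries. The interval of S2-AbdA replicate 1 did not overlap that of S2 replicate 2 for Hsp70Bc, or that of S2 replicate 1 for Hsp70Ba. The other intervals overlapped between the sets, and all of them cover counting error only. Hsp70Aa took 24.6%, 16.1%, 18.2% and 17.8% in these 4 libraries, without a division by set. In S2 replicates 3 and 4, with 9 and 4 Hsp70 counts, a share could not be set apart from that of other libraries: for Hsp70Bc the intervals ran from 29.9 to 92.5 and from 19.4 to 99.4.

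**Figure D2:**
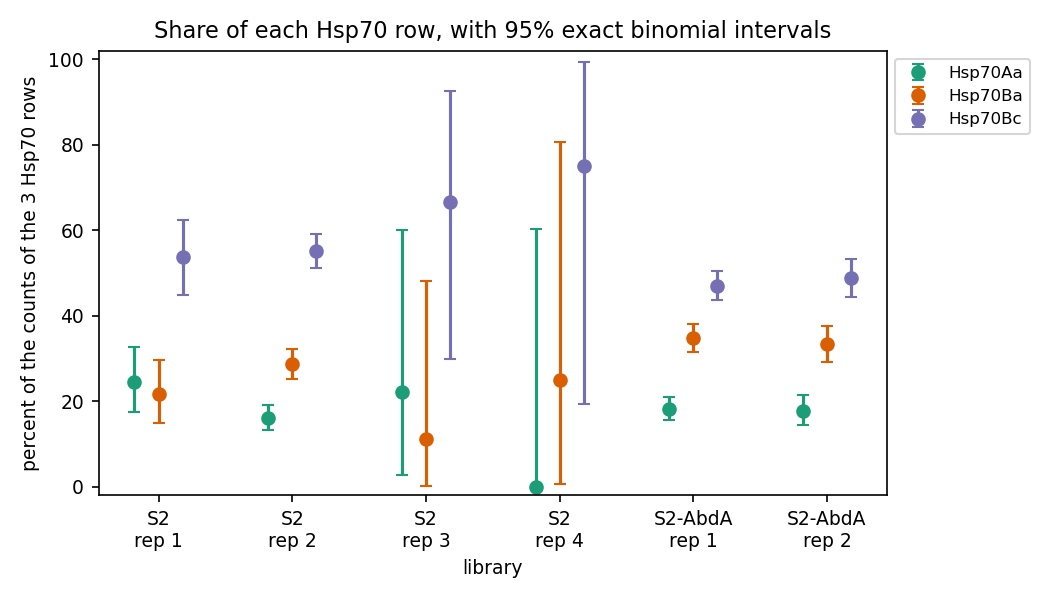
Percent of the Hsp70 counts of each library that fell to Hsp70Aa, Hsp70Ba and Hsp70Bc, with 95% exact binomial intervals that cover counting error only. Hsp70Bc holds the largest share in every library, and the intervals of S2 replicates 3 and 4 are wide because they rest on 9 and 4 counts.

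The comparison that the labels imply sets S2-AbdA against S2 replicates 1 and 2 and asks which genes differ with AbdA. None of the 4 rows passed the test in it (edgeR's quasi-likelihood test over all 6 libraries, Benjamini-Hochberg adjusted p under 0.10), where 10.4% of all genes tested did (3.0% higher and 7.36% lower). At an unadjusted p under 0.05 there was 1 row, Hsp68, and with DESeq2 1 row was called, again Hsp68. The log2 fold change of Hsp68 was 1.10 (SE 0.42, adjusted p = 0.169). Its S2-AbdA libraries both exceeded all S2 libraries, an order that was not counted over all genes. Its adjusted p was 0.0821 to 0.0915 with no filter, a length correction, DESeq2 or the libraries of the comparison alone. With other scalings it was 0.149 to 0.229, with a replicate block 0.249, and with all S2 libraries as 1 group 0.611 (edgeR). Its log2 fold change was 0.74 without S2 replicate 1, 0.60 without S2-AbdA replicate 1 and 1.59 without S2 replicate 2. The Hsp70 sum was 0.59 higher in S2-AbdA on the log2 scale (SE 0.59, adjusted p = 0.822). That difference was as large as its standard error, and leaving out S2 replicate 1 turned it to -0.065 while leaving out S2 replicate 2 raised it to 1.86. Hsp70Ba differed by 0.92 (SE 0.61, adjusted p = 0.594), Hsp70Aa by 0.59 (SE 0.57, adjusted p = 0.808) and Hsp70Bc by 0.39 (SE 0.59, adjusted p = 0.924). Leaving out S2 replicate 2 brought Hsp70Ba to 2.52 (adjusted p = 0.0308), and leaving out S2 replicate 1 turned Hsp70Bc to -0.27. The median of the 4 rows was 0.75, against -0.02 over all genes tested.

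The authors' deposited table names 2122 changed genes, where 14770 were counted and the test above called 971. It holds 2 of these rows, neither of which passed the test above. The authors' deposited table gives Hsp68 a 2.12-fold higher level in S2-AbdA with a false discovery rate of 0.00224. Hsp70Ba stands at 1.80-fold in the authors' deposited table, with a false discovery rate of 0.0256.

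Against S2 replicates 3 and 4 the same S2-AbdA libraries stood far higher. All 4 rows rose (4 of 4 higher, where 14.7% of all genes tested were higher and 31.8% passed in either direction), with a median log2 fold change of 6.48 against -0.01 over all genes. The Hsp70 sum rose by 6.68 (SE 0.81, adjusted p = 0.000368 by edgeR's quasi-likelihood test). As a ratio of CPM from summed counts it was 138 times higher, with a counting interval of 80.1 to 259. The copies rose by 7.76 for Hsp70Ba, 6.80 for Hsp70Aa and 6.16 for Hsp70Bc (SE 0.99, 0.91 and 0.82). Hsp70Ba and Hsp70Aa each had 2 counts in all in S2 replicates 3 and 4, so their ratios of 306 and 161 have counting intervals of 84.2 to 2533 and 44.1 to 1338. Hsp68 rose by 3.80 (SE 0.46, adjusted p = 0.000374, edgeR), and its ratio of CPM was 17.1 with a counting interval of 16.4 to 17.9. These ratios use library totals without the scaling factors of the fit. The fit itself gave 103-fold for the Hsp70 sum and 13.9-fold for Hsp68, the latter outside its counting interval.

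Between the S2 sets, both labelled wild type, with abd-A at 29.1 and 52.7 CPM in replicates 1 and 2 and 0 and 0.0429 in replicates 3 and 4, all 4 rows were lower in replicates 3 and 4 (4 of 4 lower, where 18.9% of all genes tested were lower). Their median was -5.99, against -0.01 over all genes. The Hsp70 sum fell by 6.09 on the log2 scale (SE 0.80, adjusted p = 0.000374 by edgeR's quasi-likelihood test), and the CPM of replicates 1 and 2 were 94.4 times those of replicates 3 and 4 (counting interval 54.9 to 178). The log2 fold changes of the copies were -6.85 for Hsp70Ba (SE 0.99), -6.21 for Hsp70Aa (SE 0.92) and -5.77 for Hsp70Bc (SE 0.81). Hsp68 fell by 2.70 (SE 0.44, adjusted p = 0.00146, edgeR), and its ratio of CPM was 8.01 with a counting interval of 7.66 to 8.38. The ratios of CPM again lack the scaling of the fit. The fit gave 68.3-fold for the Hsp70 sum and 6.49-fold for Hsp68, the latter outside its counting interval. The 3 comparisons share libraries with each other, so they are not independent: the last one holds no S2-AbdA library, and the one before it holds the same low S2 libraries. With all 4 S2 libraries taken as 1 group, the Hsp70 sum differed from S2-AbdA by 1.57 (adjusted p = 0.732) and Hsp68 by 1.89 (adjusted p = 0.611); neither passed.

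**Figure D3:**
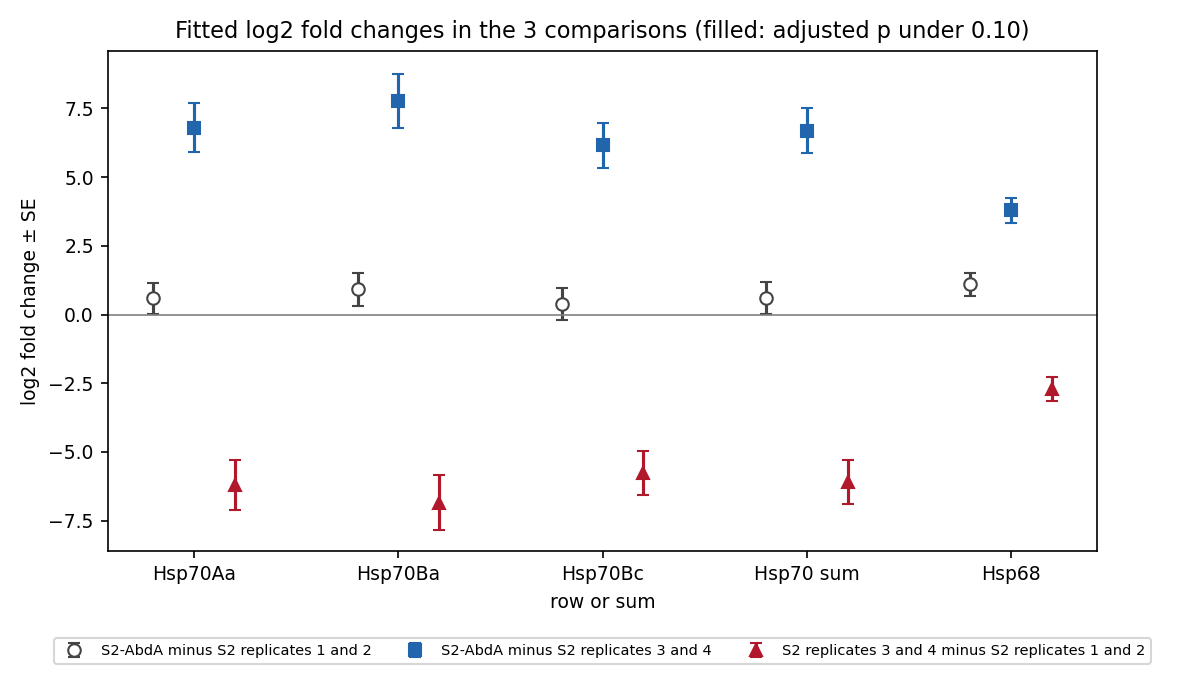
Log2 fold changes with standard errors from edgeR's quasi-likelihood fit for the 3 Hsp70 rows, their sum and Hsp68 in each of the 3 comparisons; filled points have an adjusted p under 0.10. The values of S2-AbdA against S2 replicates 1 and 2 lie between 0.39 and 1.10, and those that involve S2 replicates 3 and 4 lie between 3.80 and 7.76 or between -6.85 and -2.70.

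Hsp68 and the Hsp70 copies did not keep 1 ratio. There were 26.8 Hsp68 counts for each Hsp70 count in S2 replicate 1 (exact 95% interval 22.5 to 32.0) and 12.7 in S2 replicate 2 (11.7 to 13.8). In S2-AbdA there were 23.3 (21.7 to 25.0) and 20.4 (18.7 to 22.4), and in S2 replicates 3 and 4 there were 96.9 (50.8 to 213) and 361 (141 to 1326). Hsp68 counts exceeded those of the 3 Hsp70 rows in every library. The ratio was highest in S2 replicates 3 and 4, where it rests on 9 and 4 Hsp70 counts. Hsp70 reads missing from these rows would make the ratio too high, to an extent that is not known. Whether the log2 changes of Hsp68 and of the Hsp70 sum differ between the sets was not tested.

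The cognate Hsp70 genes are made without stress. Of 6 tested, 0 were higher and 1 lower in S2-AbdA than in S2 replicates 1 and 2, 1 was higher than in S2 replicates 3 and 4, and between the S2 sets 2 were lower in replicates 3 and 4. Over all genes 10.4%, 31.8% and 37.0% passed. With DESeq2 the called genes numbered 1, 1 and 2. Their medians were 0.11, 0.60 and -0.30, in the order of the comparisons above. Hsc70-4, the main constitutive cytosolic Hsp70, named here after its values were seen, was at 4654, 5405 and 7097 CPM in S2 replicates 1 and 2, S2 replicates 3 and 4 and S2-AbdA, and passed no test (log2 0.57, 0.03 and 0.54). Hsc70-3, the chaperone of the endoplasmic reticulum known as BiP, fell by 1.74 in S2 replicates 3 and 4 (adjusted p = 0.0322 by edgeR's quasi-likelihood test), from 2421 to 639 CPM. Hsc70-2 took its own course: 11.9 and 14.3 CPM in S2 replicates 1 and 2, 0.167 and 0.258 in replicates 3 and 4, and 0.569 and 0.820 in S2-AbdA. It fell by 4.26 in S2-AbdA against S2 replicates 1 and 2 (edgeR adjusted p = 0.000284), the comparison in which no Hsp70 copy passed.

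Among the cytosolic partners of Hsp70, J-domain proteins, nucleotide exchange factors and the Hsp90 system, 0 of 10 passed in S2-AbdA against S2 replicates 1 and 2 (0 at an unadjusted p under 0.05, 0 with DESeq2). Against S2 replicates 3 and 4, 2 were higher, and between the S2 sets 3 were lower in replicates 3 and 4, not far from the 14.7% and 18.9% of all genes. The medians were -0.07, 0.13 and -0.26. The one with changes nearest in size to Hsp70 was stv, which codes for starvin, a BAG-domain exchange factor of Hsp70. It was at 15.8 and 35.4 CPM, then 0.870 and 2.56, then 39.4 and 35.4 in the 3 sets, so S2 replicates 3 and 4 were again the low libraries. It rose by 4.19 in S2-AbdA over S2 replicates 3 and 4 and fell by 3.68 between the S2 sets (adjusted p = 0.000476 and 0.000547, edgeR). DnaJ-1, the main heat-induced J-domain protein, changed less, by 1.14 and -1.46 (adjusted p = 0.0437 and 0.0160, edgeR). Hsp83, the cytosolic Hsp90, fell by 0.88 between the S2 sets (adjusted p = 0.0939, edgeR).

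The small heat shock proteins are holdases that work without ATP. Of 8 tested of 9 listed, 0 passed in S2-AbdA against S2 replicates 1 and 2 (1 at an unadjusted p under 0.05, 0 with DESeq2, median 0.80). Against S2 replicates 3 and 4, 6 were higher and 0 lower (median 4.41), where 14.7% of all genes were higher and 17.1% lower. Between the S2 sets 5 were lower and 1 higher in replicates 3 and 4 (median -3.16), where 18.9% of all genes were lower and 18.1% higher. Hsp22, which acts in mitochondria, was at 64.0 and 183 CPM, then 18.1 and 5.35, then 527 and 181 in the 3 sets. Hsp26 was at 125 and 453, then 33.9 and 9.39, then 1033 and 347 CPM. In both, S2-AbdA replicate 1 was the highest library and S2 replicate 4 the lowest. Hsp22 changed by -2.99 and Hsp26 by -3.33 between the S2 sets (adjusted p = 0.0174 and 0.0148, edgeR). CG14207 was the 1 that was higher (117 to 188 CPM, adjusted p = 0.0618, edgeR). l(2)efl rested on 0, 4, 0, 1, 11 and 11 counts and rose by 4.25 only against S2 replicates 3 and 4 among the 3 comparisons (adjusted p = 0.0206, edgeR). The heat-induced noncoding RNA Hsromega, the 1 tested gene of its list, passed in none of the comparisons (0.79, 0.94 and -0.15; 1 comparison at an unadjusted p under 0.05, and the same 1 with DESeq2), and the alphagamma-element, which lies in the Hsp70B cluster, had 0 counts in every library.

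Chaperones of mitochondria and the endoplasmic reticulum were read as a further list. Of 7 tested, 0 passed in S2-AbdA against S2 replicates 1 and 2 (0 at an unadjusted p under 0.05, 0 with DESeq2), 3 were lower in S2-AbdA than in S2 replicates 3 and 4, and the same number were higher in replicates 3 and 4 than in 1 and 2, where 17.1% and 18.1% of all genes were. Hsp60, the mitochondrial chaperonin, rose by 1.90 in S2 replicates 3 and 4 (435 to 1260 CPM, adjusted p = 0.0164, edgeR). CG11267, a homologue of its Hsp10 cofactor, rose by 1.76, and Roe1, a mitochondrial exchange factor of the GrpE type, by 1.34. The medians of the list were 0.00, 0.02 and -0.39. The 5 unfolded protein response genes gave 0 calls against S2 replicates 1 and 2 (0 at an unadjusted p under 0.05, 0 with DESeq2) and 2 higher against replicates 3 and 4, the sensor kinases Ire1 (1.17) and PEK (1.07). PEK was the 1 that fell in S2 replicates 3 and 4 against replicates 1 and 2, by 1.07. Over all genes 14.7% were higher against replicates 3 and 4, and 18.9% were lower between the S2 sets. The medians of the 5 genes were 0.33, -0.08 and 0.17.

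Factors known at the Hsp70 promoter were followed at the level of their own RNA. Of 11 tested, 1 was higher in S2-AbdA than in S2 replicates 1 and 2, 1 was higher and 1 lower than in replicates 3 and 4, and between the S2 sets 4 were higher and 2 lower in replicates 3 and 4, where 18.1% of all genes were higher and 18.9% lower. In the first comparison 3.0% of all genes were higher, and in the second 14.7% were higher and 17.1% lower. The medians were 0.10, 0.18 and -0.38. Hsf, the activator itself, was at 101 and 126 CPM in S2 replicates 1 and 2, 24.0 and 72.4 in replicates 3 and 4, and 120 and 135 in S2-AbdA. S2 replicates 3 and 4 were the lowest libraries, as for Hsp70. Hsf did not pass against S2 replicates 1 and 2 (0.13, adjusted p = 0.983), rose by 1.17 against replicates 3 and 4 (adjusted p = 0.0712) and fell by 1.04 between the S2 sets (adjusted p = 0.0896, edgeR). Parp, whose product modifies chromatin at heat shock loci, was the 1 that rose in S2-AbdA against S2 replicates 1 and 2, by 1.21 (adjusted p = 0.0703, edgeR). Parp also rose by 0.96 in S2 replicates 3 and 4 against replicates 1 and 2 (adjusted p = 0.0757, edgeR). Between S2-AbdA and S2 replicates 3 and 4 it differed by 0.25 and did not pass. TH1, a NELF subunit, and spt4, a DSIF subunit, rose by 1.18 and 1.17 in S2 replicates 3 and 4, and Nelf-E rose by 0.99. Nelf-A and Spt5, of the same complexes, differed by -0.56 and -0.38 and did not pass, and Nelf-B had no row. CycT, the cyclin of the kinase that releases paused polymerase, fell by 1.25.

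Because every culture held copper, the metal response genes were read beside the heat shock rows. The mean CPM of the 4 tested metallothioneins was lowest in S2 replicates 1 and 2. That of MTF-1, the transcription factor that drives them, was lowest in S2 replicates 3 and 4, as for Hsp70, but MTF-1 passed in none of the comparisons (0.18, 0.55 and -0.37 by edgeR). MtnD, whose product binds copper, was at 5.26 and 15.9 CPM in S2 replicates 1 and 2, 70.6 and 50.1 in replicates 3 and 4, and 65.1 and 38.2 in S2-AbdA. S2 replicates 3 and 4, lowest for Hsp70, were thus among the highest for MtnD. Of 7 tested, 3 were higher in S2-AbdA than in S2 replicates 1 and 2 (MtnD 2.24, MtnE 2.07 and MtnB 1.89), 1 was lower than in replicates 3 and 4 (MtnA -1.18), and 4 were higher in S2 replicates 3 and 4 than in 1 and 2 (MtnA 2.02, MtnB 1.71, MtnD 2.85 and MtnE 2.21). Over all genes 3.0% were higher, 17.1% lower and 18.1% higher in these comparisons. The medians of the 7 genes were 0.84, -0.13 and 1.71. As in Hsp70, MtnD and MtnE were about 3 times higher in S2 replicate 2 than in S2 replicate 1 (12.8 against 4.24 CPM for MtnE).

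The genes next to the Hsp70 and Hsp68 rows were examined for the same changes. Of 20 genes within 10 kb of a member 18 were tested. Between the S2 sets 1 was higher and 3 lower in replicates 3 and 4, with a median of -0.26 beside the -5.99 of the 4 rows, where 18.1% of all genes were higher and 18.9% lower. CG3281, 26 bases from the Hsp70Aa row, differed by 0.32, CG5608, 6 bases from Hsp70Ba, by 0.39, and SMC1, 992 bases from Hsp68, by -0.63, and none of these passed the test. CG18549 was the neighbour with the largest change: it fell by 3.11 between the S2 sets (edgeR adjusted p = 0.000361) and, 8942 bases from Hsp70Ba, was beyond 4 genes nearer to that row, none of which passed. It also fell by 1.68 in S2-AbdA against S2 replicates 1 and 2 (adjusted p = 0.0171, edgeR), as the only neighbour to pass there. Against S2 replicates 3 and 4, CG18549 rose by 1.43 and aur, which codes for the Aurora A kinase, fell by 1.51.

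**Figure D4:**
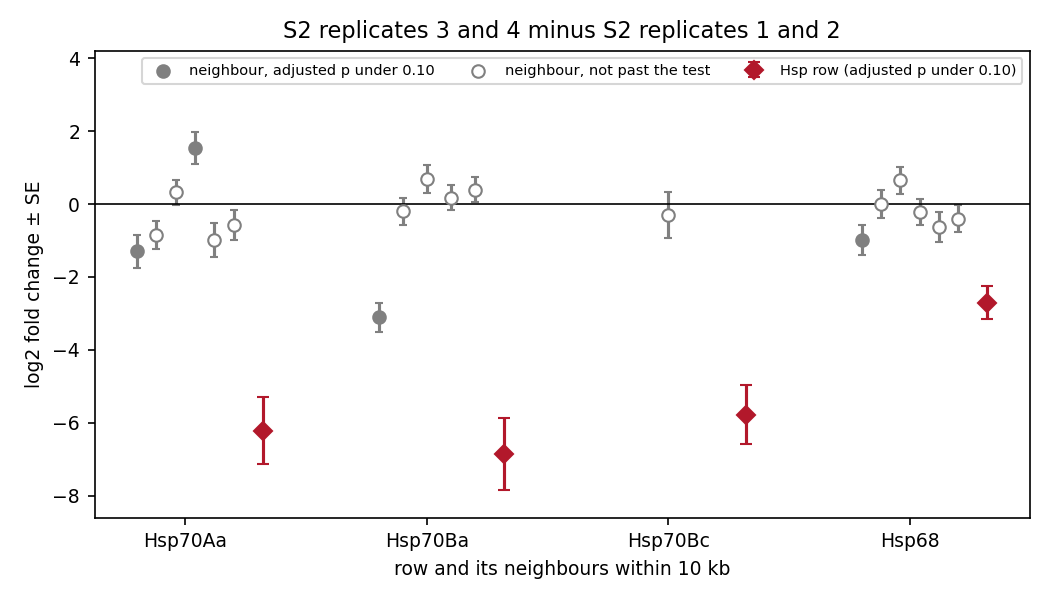
Log2 fold changes with standard errors, S2 replicates 3 and 4 over S2 replicates 1 and 2, for the tested genes within 10 kb of each row in order of position (grey; filled where the adjusted p is under 0.10) and for the row itself (red diamond). The 4 rows lie at -2.70 to -6.85, and the neighbours between -3.11 and 1.53.

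The genes with a pattern over the 6 libraries most like that of the Hsp70 sum were sought by the root mean square difference of centred log2(CPM + 0.5). The added 0.5 exceeded the Hsp70 sum in S2 replicates 3 and 4 (0.167 and 0.0573 CPM). It shortened the fall of the Hsp70 sum there more than that of genes at higher CPM, so the ranking depends on it. Other added values were not tried. Over the tested genes the median of this difference was 1.98. The nearest 10 were Hsp27 (0.255), CG17549 (0.371), Hsp23 (0.395), MFS3 (0.478), stv (0.496), CG12214 (0.551), Hsp22 (0.557), Hsp26 (0.562), CG32333 (0.574) and CG9522 (0.583). Of these, 4 code for small heat shock proteins and stv for an Hsp70 cofactor. Hsp68 itself was at 0.483, with 4 genes nearer. Hsp27 was at 63.8 and 192 CPM, then 5.16 and 6.47, then 182 and 125, and so had the same order of libraries as the Hsp70 sum apart from S2 replicate 2 being above S2-AbdA replicate 1 and S2 replicates 3 and 4 changing places. Of the 10, CG32333 passed in S2-AbdA against S2 replicates 1 and 2 (1.90, adjusted p = 0.0493, edgeR), with 2.72 and 7.22 CPM in those S2 libraries and 18.1 and 20.1 in S2-AbdA.

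**Figure D5:**
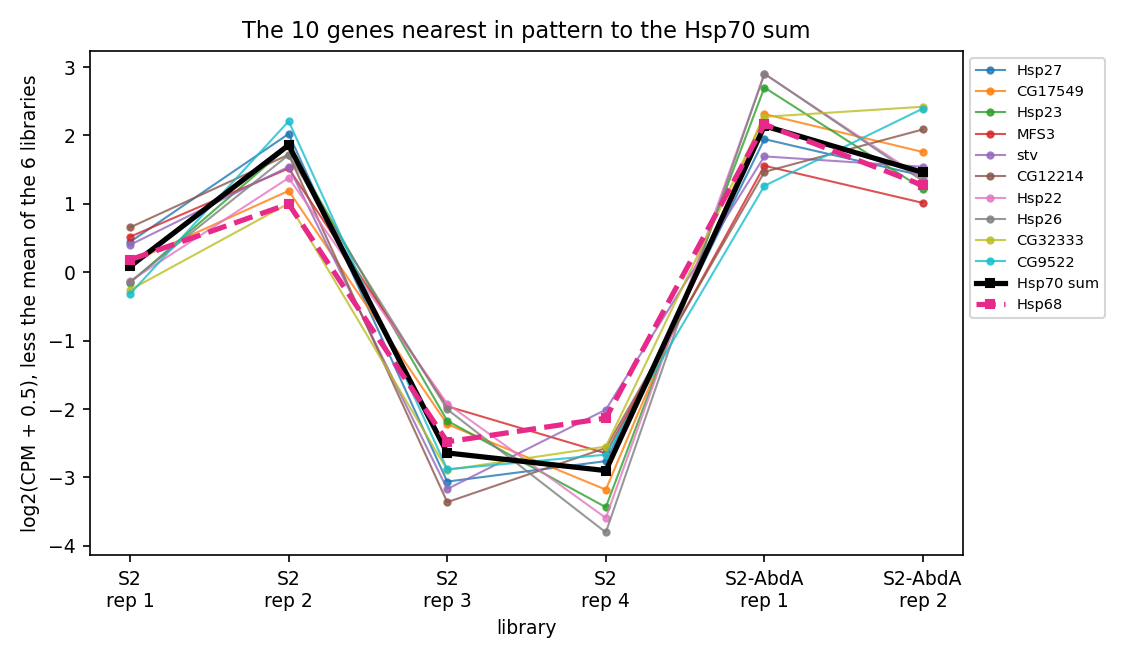
Levels as log2(CPM + 0.5) less the mean over the 6 libraries, for the Hsp70 sum (black), Hsp68 (dashed) and the 10 genes nearest to the Hsp70 sum. All 12 lines are lowest in S2 replicates 3 and 4 and the genes were chosen for this likeness. The added 0.5 CPM exceeds the Hsp70 sum in those libraries, which shortens its fall.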

How the data were processed

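Per the labels, polyadenylated RNA of 6 libraries was sequenced. For each library the authors deposited raw counts, not normalized, for 14770 genes in build dm3. They also deposited a table of log2 values, p-values and false discovery rates, with CASAVA and edgeR named in the submitters' processing notes. Aligner, counter, strand setting and treatment of multiply matching reads are not stated in the labels or files. Set against the counts, the headings logConc and logFC of that table proved exchanged (correlation across genes of logConc with log2(S2-AbdA/S2 replicates 1 and 2) of -0.946, pseudocount 0.1 CPM), and its ratio was turned to S2-AbdA over S2.

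Levels are CPM over a library's total. Genes passing filterByExpr (9375) were fitted in R 4.3.3 with edgeR 4.0.16 (robust quasi-likelihood, TMM factors 0.752 to 1.10), with 3 sets of 2 libraries, 3 contrasts, and a Benjamini-Hochberg adjusted p under 0.10 over all genes. Standard errors are each log2 fold change divided by the root of its F. All 4 rows passed the filter. The Hsp70 sum, which rests on the 3 rows present, replaced its rows in a second fit (9373 rows). DESeq2 1.42.0, limma 3.58.1 and Python 3.11.15 with pandas 2.3.3, numpy 2.4.6, scipy 1.17.1 and matplotlib 3.10.9 were also used. The fit was tested on simulated data. Intervals are 95% exact and cover counting error only.

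Alternatives were 3 other scalings, no filter, DESeq2, a length correction, a replicate block, all S2 libraries as 1 group, the libraries of a comparison alone, and leaving out each library. The members, lists and tests were chosen with earlier results of these data known. Named genes were the members, genes within 10 kb, the 10 of most similar pattern, Hsf, and per list at most 4 that passed, by smallest p in the first comparison. Hsc70-4, Hsromega, MTF-1, Nelf-A, Nelf-B, Nelf-E, Spt5 and the cell type markers named were added after the values were seen. NCBI gene numbers matched RefSeq for 14468 genes.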

Additional observations from a re-analysis of the deposited data

Results flagged for a closer look

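In 55 genes and sums, the 4 S2 libraries were searched for a library far from the other 3, by the gap to its nearest neighbour as a share of the whole range (Dixon's test at its 95% critical value). Chance flags about 1 in 20 such groups, and 3 passed. The Hsp70 rows, their sum and Hsp68 were not among them. For l(2)efl the share was 0.843, with S2 replicate 2 at 0.0914 CPM (4 counts) and the others at 0 to 0.0143. For CG5991, a neighbour of Hsp68, it was 0.849, with S2 replicate 3 at 52.3 CPM and the others at 96.3 to 104. For CG9522, 1 of the genes of similar pattern, it was 0.851, with S2 replicate 2 at 43.6 CPM and the others at 0.796 to 7.16.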

How the results depend on the processing

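In S2-AbdA against S2 replicates 1 and 2, Hsp68 passed the test with no filter (1.10, adjusted p = 0.0821), the length correction (1.24, 0.0882), DESeq2 (1.13, 0.0910) and the libraries of the comparison alone (1.12, 0.0915). It passed also without S2 replicate 3, S2 replicate 4 or S2-AbdA replicate 2 (1.11, 1.10 and 1.47), and leaving out 1 library gave 0.60 to 1.59. The number of rows past the test was then 1 in each of these settings and 0 to 1 with 1 library left out; without S2 replicate 2 it was Hsp70Ba. Leaving out 1 library, the Hsp70 sum ran from -0.065 to 1.86. It was reversed without S2 replicate 1, as was Hsp70Bc (-0.27, range to 1.69). The cause was not tested. Where 1 library was left alone in its set, it was assumed to vary like the other sets. With all 4 S2 libraries as 1 group the comparison with S2-AbdA called 0 rows (Hsp70 sum 1.57, Hsp68 1.89, Hsp70Aa 1.58, Hsp70Ba 1.91, Hsp70Bc 1.36), and 46 genes in all. Every other alternative kept all 4 rows past the test against and between S2 replicates 3 and 4, with the Hsp70 sum at 5.86 to 7.79 and -7.19 to -4.85 and Hsp68 at 3.29 to 4.16 and -3.04 to -2.25 when 1 library was left out.

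Replicate numbers did not pair the libraries (correlation of deviations -0.00683 across 9375 genes). With the replicate block the Hsp70 sum was 0.83, 6.77 and -5.94 and Hsp68 1.09, 3.79 and -2.70, no call on a row changed, and 1013, 2524 and 2844 genes were called in place of 971, 2977 and 3470. Leaving out 1 library moved these to 658 to 1829, 1054 to 5992 and 1048 to 6354, and the libraries of the comparison alone gave 1744, 1650 and 3068. Scaling moved the split of higher and lower calls: against S2 replicates 3 and 4 from 1377 and 1600 to 1538 and 782 with library size alone and 1340 and 2428 with the length correction, and between the S2 sets from 1698 and 1772 to 760 and 1738, 1170 and 1981 (upper quartile) and 3455 and 1484. In the first comparison it went from 281 and 690 to 621 and 725 with the length correction. The median of all genes was then 0.30 and -0.27 with library size alone (against and between S2 replicates 3 and 4), -0.15 with the upper quartile between the S2 sets, and 0.13, -0.19 and 0.31 with the length correction, all smaller than the called changes of the 4 rows. With 9 and 4 counts in S2 replicates 3 and 4, depth limits how low the Hsp70 sum can be said to be there and leaves their copy shares undetermined.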
